A study of Homo sapiens with 8 samples.

Results

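SW480 is an established human colorectal cancer cell line. SW480 cells carrying a short hairpin against CYP1B1 (shCYP1B1) were compared here with SW480 cells carrying a non-targeting hairpin (shNT), which were the controls. The comparison takes in 4 of the 8 RNA-seq libraries of the series, 2 per group, chosen by their titles, and every gene with enough reads was tested from the deposited read counts. Of 16829 genes listed, 14157 passed the low-count filter. The other 4 libraries come from a second colorectal cancer line, RKO, with CYP1B1 overexpression or its control. They entered the fit so that all groups share 1 estimate of the spread, and they are used again at the end. Per the labels, both lines grew in DMEM with serum and received lentivirus, and the libraries were made from total RNA with a stranded kit for mRNA. Only 1 hairpin against CYP1B1 is represented, so the effect of lower CYP1B1 and effects of that hairpin on other transcripts cannot be told apart. The labels do not say whether the libraries of a group came from separate cultures. The p-values therefore measure the spread between libraries of the same group, which may be technical. That spread was estimated over all 8 libraries, so the RKO libraries also shape the calls in SW480.

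CYP1B1 is a cytochrome P450, a haem enzyme that adds oxygen to its substrates, which include oestrogens, polycyclic aromatic hydrocarbons, retinoids and polyunsaturated fatty acids. Its gene is a classical target of the aryl hydrocarbon receptor (AHR), a ligand-activated transcription factor that pairs with ARNT. A hairpin processed into a small interfering RNA lowers the messenger RNA it matches, so the transcript level checks the label.

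The targeted gene was low in every library and lower with the hairpin. CYP1B1 had 50 and 76 counts in the shNT libraries and 12 and 10 counts in the shCYP1B1 libraries, which is 1.43, 2.20, 0.354 and 0.290 CPM (counts scaled to the library total). The exact 95% Poisson intervals of the shCYP1B1 libraries (0.183 to 0.619 and 0.139 to 0.533 CPM) lay below those of the shNT libraries (1.06 to 1.89 and 1.73 to 2.75 CPM); they cover counting error only. On the log2 scale CYP1B1 fell by 2.44 (SE 0.31, with adjusted p = 6.43e-05 in edgeR). Here and below, a log2 fold change is shCYP1B1 minus shNT, a p-value is from edgeR's quasi-likelihood test with Benjamini-Hochberg adjustment over all 14157 genes, a gene is said to have risen or fallen where that adjusted p was under 0.05, and SE is the standard error of the log2 fold change. All other CPM values are scaled with TMM factors, and n is 2 libraries per group throughout.

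A large share of the transcriptome passed the test, evenly in both directions, so a count of genes means little without that background. In all, 3588 genes rose and 3579 fell, 50.6% of those tested, or 25.3% in each direction. A change of at least 2-fold was seen for 13.5% of the genes tested, 1009 higher and 904 lower, and at least 4-fold for 308 and 245. The median log2 fold change over all genes was -0.0037, and 45.05% of the genes that passed changed by less than 1.5-fold. Between the groups, 1783 and 1832 genes differed by over 2-fold (libraries numbered 1 and 2), counting genes at 1 CPM or more. Within the groups the same count was 87 for shNT and 91 for shCYP1B1. The 4 libraries held between 33870028 and 34921085 counts. With any 1 SW480 library left out, between 5130 and 5231 genes were called, and with either RKO overexpression library left out, 8743 and 8733, so many genes near the threshold depend on the libraries in the fit. The 2 overexpression libraries differed by over 2-fold at 175 genes. In a fit of the 4 SW480 libraries alone, 9071 of 13846 genes tested were called, 4593 higher and 4478 lower.

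The genes are described below by lists of known pathways and cell types. Of each list, members with too few reads were not tested, and counts refer to tested members.

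**Figure D1:**
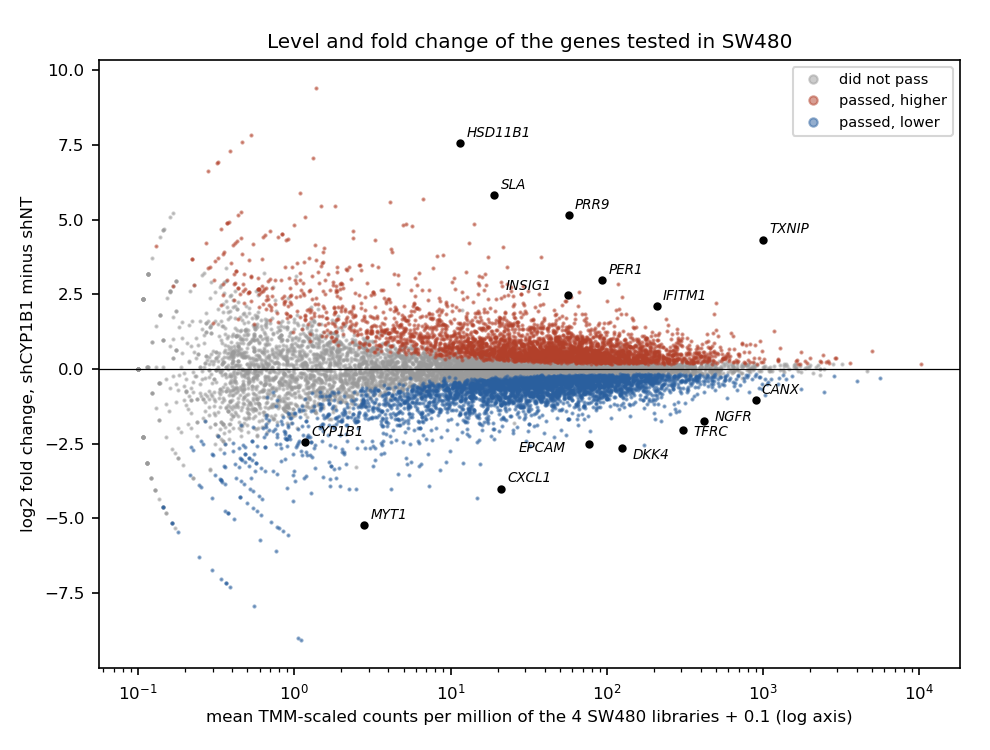
Mean level of each tested gene over the 4 SW480 libraries (TMM-scaled CPM plus 0.1, log axis) against its log2 fold change, with genes that passed the test coloured by direction and 15 genes named. Changes of both signs are seen at low and at high levels, with TXNIP at 4.33 and TFRC at -2.03 among abundant genes.

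The cells carried the marks of a colonic epithelial line in part. Of 13 colon epithelial markers, 12 were listed and 6 stood at 1 FPKM (the count scaled by gene length and library total) or more in all 4 libraries, while CDX1 had at most 3 counts in each. The summed level of 23 listed markers of stromal, endothelial and immune cells was 28.3 and 33.4 CPM in shNT and 56.6 and 59.7 CPM in shCYP1B1. In that list, 4 of 12 tested genes rose (33.3%, against a background of 25.3%), with CLDN5 and PTPRC at 3 counts or fewer in each library. One of the 4 is CD68, which encodes a lysosomal glycoprotein of macrophages. It stood at 5.36 and 6.87 CPM in shNT and 22.5 and 24.4 CPM in shCYP1B1 (1.94, SE 0.11). These values are part of the summed level. The 4 became 1 or 2 in fits without any 1 SW480 library. Neuronal markers summed to 471 and 458 CPM in shNT and 509 and 503 CPM in shCYP1B1. In such bulk libraries, fewer cells of a type and less RNA per cell cannot be told apart, and the part of the stromal markers in the results below was not tested.

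Genes for neutrophil-attracting chemokines, small secreted proteins that guide leukocytes, were among the most reduced transcripts. Of 29 chemokine and chemokine receptor genes, 20 could be tested, of which 10 fell and 6 rose (50% and 30%, against a background of 25.3% each way), 9 and 6 of them by at least 2-fold, and the median log2 fold change was -1.38. CXCL1, CXCL2, CXCL3, CXCL5, CXCL6 and CXCL8 lie together on chromosome 4 and encode ligands of CXCR1 and CXCR2. The windows before the start sites of CXCL1, CXCL2, CXCL3, CXCL5 and CXCL6 each held the letters GGGAATTTC, 1 form of the site bound by NF-kB, the transcription factor family of inflammatory signalling. They are shown here because these neighbouring genes share the site and most of them fell. Each sequence is the 250 bases before the start site from RefSeq (GRCh38.p14), 5′ to 3′ on the strand of the gene, with the site in capitals.
CXCL1, chr4:73869143-73869392, + strand: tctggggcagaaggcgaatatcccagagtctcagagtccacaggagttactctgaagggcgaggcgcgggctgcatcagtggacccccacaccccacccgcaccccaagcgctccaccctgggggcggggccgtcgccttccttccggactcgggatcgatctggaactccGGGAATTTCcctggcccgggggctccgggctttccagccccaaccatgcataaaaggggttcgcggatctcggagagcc
CXCL2, chr4:74099196-74099445, - strand: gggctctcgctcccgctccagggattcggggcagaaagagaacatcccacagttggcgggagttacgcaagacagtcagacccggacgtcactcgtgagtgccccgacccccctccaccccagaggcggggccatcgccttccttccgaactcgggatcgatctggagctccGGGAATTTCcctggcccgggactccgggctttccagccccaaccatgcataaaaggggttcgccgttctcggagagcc
CXCL3, chr4:74038690-74038939, - strand: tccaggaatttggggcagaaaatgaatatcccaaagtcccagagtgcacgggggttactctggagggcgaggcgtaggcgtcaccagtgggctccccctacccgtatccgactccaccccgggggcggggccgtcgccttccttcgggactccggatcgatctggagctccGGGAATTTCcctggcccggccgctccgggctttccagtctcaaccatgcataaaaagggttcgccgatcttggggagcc
CXCL6, chr4:73836428-73836677, + strand: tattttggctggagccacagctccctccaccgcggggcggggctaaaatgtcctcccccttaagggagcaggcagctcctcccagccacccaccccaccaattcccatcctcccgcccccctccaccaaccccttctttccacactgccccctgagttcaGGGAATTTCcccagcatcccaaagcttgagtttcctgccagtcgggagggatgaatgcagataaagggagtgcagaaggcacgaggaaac
CXCL5, chr4:73998678-73998927, - strand: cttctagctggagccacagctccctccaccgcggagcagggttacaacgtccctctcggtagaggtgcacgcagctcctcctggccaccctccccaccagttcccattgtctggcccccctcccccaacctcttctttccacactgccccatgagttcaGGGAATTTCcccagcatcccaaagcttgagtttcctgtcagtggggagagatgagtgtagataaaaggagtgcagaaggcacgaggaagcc

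The site starts 79, 78, 79, 90 and 91 bases before the start site in this order. Searched on both strands of the 300-base windows (250 bases before to 50 after the start), these letters were found for 5 of 15 chemokine genes with a window, for 47 of 11505 tested genes with a window (0.409%), and for 0.346% of the genes that rose and 0.603% of those that fell. Among genes changed at least 2-fold, the letters were found for 5 of 760 that rose (0.658%) and 10 of 725 that fell (1.38%). CXCL1, CXCL2, CXCL3 and CXCL6, shown above because they share the site, are among these 10. The match is a description of the sequence and was not tested further.

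CXCL1 stood at 41.6 and 37.5 CPM in shNT and 1.56 and 3.34 CPM in shCYP1B1, CXCL2 at 7.35 and 7.91 and 0.672 and 0.271 CPM, and CXCL3 at 13.99 and 12.9 and 0.855 and 0.902 CPM. Their log2 fold changes were -4.01, -4.01 and -3.93 (SE 0.29, 0.48 and 0.34; adjusted p = 1.35e-06, 4.06e-05 and 4.30e-06). All 3 encode closely related proteins, so reads may be split between them. CXCL8, which encodes interleukin 8, stood at 15.4 and 15.6 CPM in shNT and 0.947 and 2.01 CPM in shCYP1B1 (-3.38, SE 0.39, adjusted p = 3.35e-05). The 2 groups of libraries did not overlap at any of these genes, nor at 11430 of all 14157 genes tested. The shCYP1B1 libraries differed from each other. Without shCYP1B1 replicate 2 the log2 fold change was -4.66 for CXCL1 and -4.02 for CXCL8. Without shCYP1B1 replicate 1 it was -4.79 for CXCL2. CXCL5 and CXCL6 were added after their values were seen. CXCL6 fell less (3.75 and 2.93 against 1.56 and 0.812 CPM; -1.49, SE 0.51, adjusted p = 0.0356, which became 0.189 without shCYP1B1 replicate 2, 0.167 without shNT replicate 1 and 0.0801 without shNT replicate 2), and CXCL5, with the same letters before its start, did not pass (0.952 and 1.304 against 0.122 and 0.812 CPM; -1.26, SE 0.92, adjusted p = 0.275). CCL2, the monocyte chemoattractant, stood at 54.9 and 56.1 CPM in shNT and 10.7 and 7.85 CPM in shCYP1B1 (-2.59, SE 0.19). CCL20, which attracts cells bearing CCR6, went from 4.99 and 3.999 to 0.0306 and 0.511 CPM (-4.03, SE 0.76; -3.12 without shCYP1B1 replicate 1 and -7.03 without shCYP1B1 replicate 2).

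Not all of the list fell. CXCL14, a chemokine made by many epithelia, stood at 3.78 and 3.999 CPM in shNT and 41.6 and 41.5 CPM in shCYP1B1 (3.42, SE 0.18, adjusted p = 2.09e-07). CXCR4, the receptor of CXCL12, rose from 84.9 and 82.3 to 215 and 217 CPM (1.37, SE 0.12). The receptor gene CCR10 rose from low levels (0.202 and 0.05795 to 0.978 and 1.86 CPM; 3.41, and 4.53 without shNT replicate 1 and 2.80 without shNT replicate 2). Genes of secreted products outside this list were also lower: CSF2, which encodes GM-CSF, stood at 9.92 and 9.74 CPM in shNT and 0.855 and 1.38 CPM in shCYP1B1 (-3.13, SE 0.37), and the acute-phase gene SERPINA3 at 12.5 and 9.91 and 0.611 and 1.74 CPM (-3.25, SE 0.45; -4.18 without shCYP1B1 replicate 2).

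The wider NF-kB set moved in both directions. Of 36 tested pathway members and targets, 15 fell (41.7%) and 7 rose (19.4%), 7 and 1 of them by at least 2-fold. Feedback inhibitors fell: NFKBIA, which encodes the cytoplasmic inhibitor of NF-kB, stood at 90.3 and 94.7 CPM in shNT and 51.2 and 54.4 CPM in shCYP1B1 (-0.81, SE 0.09), TNFAIP3, the gene of the ubiquitin-editing enzyme A20, at 25.3 and 23.01 and 9.75 and 8.93 CPM (-1.37, SE 0.15), and NFKBIZ, a nuclear inhibitor-like protein gene, at 9.17 and 11.4 and 2.05 and 1.83 CPM (-2.41, SE 0.20). TNFAIP2, named for its induction by tumour necrosis factor, fell from 370.5 and 375 to 134 and 131 CPM (-1.49, SE 0.08, adjusted p = 2.09e-07), and the kinase gene IKBKE by 1.85 on the log2 scale. The adhesion gene ICAM1 fell by 0.76 on that scale. The subunit genes RELA and NFKB2 rose by 0.61 and 0.78 (SE 0.07 and 0.10). The 7 that rose became 4 without shNT replicate 1. NFKBIA also holds the site, on the opposite strand, 80 bases before its start, as do 5 of the 30 genes of this list with a window; its sequence is given for comparison with the chemokine windows.
NFKBIA, chr14:35404750-35404999, - strand: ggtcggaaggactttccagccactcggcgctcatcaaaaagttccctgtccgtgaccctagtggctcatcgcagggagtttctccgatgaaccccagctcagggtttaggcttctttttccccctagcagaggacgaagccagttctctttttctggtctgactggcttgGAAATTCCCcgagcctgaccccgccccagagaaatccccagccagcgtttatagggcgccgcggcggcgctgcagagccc

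**Figure D2:**
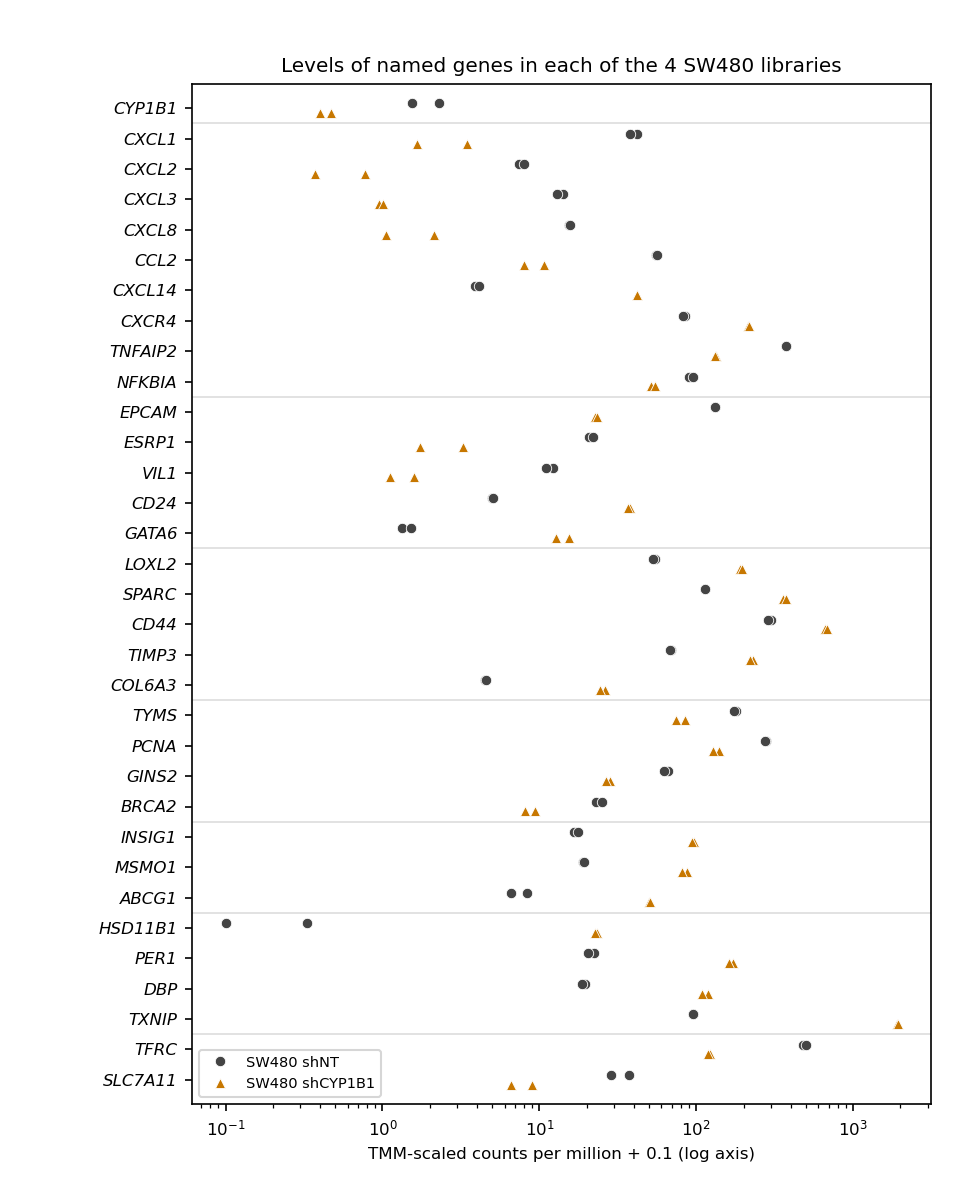
TMM-scaled CPM plus 0.1 (log axis) of 33 genes in each of the 4 SW480 libraries, with circles for shNT, triangles for shCYP1B1 and grey lines between gene groups. For each gene shown the 2 shNT points lie on one side of the 2 shCYP1B1 points, as for 11430 of all 14157 genes tested. The genes run from CYP1B1 at the top (1.44 and 2.20 against 0.367 and 0.301 CPM with TMM scaling) to SLC7A11.

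Genes induced by interferon, the antiviral cytokine, leaned lower with exceptions. Of 53 tested, 19 fell (35.8%) and 9 rose (17%), with a median of -0.28. The 19 became 11 without shCYP1B1 replicate 2 and 12 without shNT replicate 2, and the 9 became 6 and 5. SAMD9, a growth-restricting antiviral factor gene, stood at 8.54 and 11.2 CPM in shNT and 0.642 and 1.02 CPM in shCYP1B1 (-3.56, SE 0.22). OAS3, whose enzyme makes the second messenger that activates RNase L, fell from 80.95 and 78.4 to 32.3 and 37.4 CPM, and the DNA sensor gene IFI16 from 5.77 and 5.13 to 2.63 and 2.104 CPM. In contrast IFITM1, a membrane protein gene that restricts viral entry, rose from 78.3 and 78.5 to 328 and 348 CPM (2.11, SE 0.09, adjusted p = 7.04e-08).

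Epithelial identity genes, which encode the adhesion, polarity and splicing proteins of epithelial sheets, fell in a share above the background. Of 26 tested, 14 fell (53.8%) and 5 rose (19.2%), 12 and 2 of them by at least 2-fold, with a median of -0.77. EPCAM, the epithelial cell adhesion molecule, stood at 131 and 131 CPM in shNT and 22.5 and 23.3 CPM in shCYP1B1 (-2.52, SE 0.09, adjusted p = 3.45e-08). ESRP1, which encodes an epithelial splicing regulator, stood at 20.7 and 21.96 and 3.15 and 1.62 CPM (-3.16, SE 0.37). The protease gene ST14 fell from 176 and 170.2 to 73.4 and 76.5 CPM (-1.21), and MARVELD2, whose product seals the corners where 3 cells meet, from 15.7 and 15.6 to 5.74 and 6.25 CPM (-1.38). Against these, CD24, a glycosylated surface protein gene, rose from 4.87 and 4.98 to 37.5 and 36.7 CPM (2.91, SE 0.17). CDH1, which encodes E-cadherin, stood at 5.97 and 6.58 CPM in shNT and 9.93 and 8.93 CPM in shCYP1B1 and did not pass (0.59, SE 0.23, adjusted p = 0.0552, but 0.0232 and 0.0224 without RKO overexpression replicates 1 and 2). The other splicing regulator gene, ESRP2, did not pass either (0.16). The 5 that rose became 8 without either RKO overexpression library and 3 without shNT replicate 1.

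Cell junction genes did not follow the epithelial identity list. Of 37 tested, 15 rose (40.5%) and 7 fell (18.9%). PARD3, a polarity scaffold gene, rose from 35.9 and 35.004 to 81.02 and 82.2 CPM (1.203, SE 0.07), the tight junction gene CLDN3 from 19.4 and 19.2 to 60.6 and 54.9 CPM (1.58, SE 0.15), and the desmosomal gene PKP2 from 95.7 and 109 to 207 and 201 CPM (0.996, SE 0.08). Other genes of the same structures fell: PKP3 by 0.98, OCLN, which encodes occludin, by 1.02 and DSG2 by 0.62 on the log2 scale. Keratins, the intermediate filaments of epithelia, were near the background, with 5 higher (26.3%) and 4 lower (21.1%) of 19. KRT81 and KRT86, hair keratin genes of near-identical sequence, rose by 1.97 and 2.15, which may share reads, and KRT5 fell from 3148 and 3108 to 1832 and 1822 CPM (-0.78, SE 0.12). The 5 keratins that rose became 2 without shNT replicate 2.

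Transcription factors and products of the intestinal lineage changed in both directions. Of 42 genes, 20 could be tested, of which 8 fell (40%) and 4 rose (20%). The villus actin bundler gene VIL1 stood at 12.1 and 10.9 CPM in shNT and 1.497 and 1.02 CPM in shCYP1B1 (-3.19, SE 0.31). CDX2, the intestinal homeobox factor gene, fell from 84.5 and 78.3 to 44.7 and 44.8 CPM (-0.86, SE 0.09), and ASCL2, a factor of intestinal stem cells, from 65.7 and 58.9 to 25.8 and 27.2 CPM (-1.23, SE 0.12). GATA6, an endodermal factor gene, rose from 1.24 and 1.42 to 15.2 and 12.7 CPM (3.39, SE 0.19), and HNF4A from 26.6 and 31.7 to 59.4 and 58.96 CPM (1.02, SE 0.16).

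Genes of the mesenchymal state, which covers matrix secretion, contractile filaments and the factors that repress epithelial genes, leaned higher. Of 36 tested, 18 rose (50%) and 6 fell (16.7%), 14 and 3 by at least 2-fold, with a median of 0.78. The collagen cross-linking enzyme gene LOXL2 stood at 54.1 and 52.6 CPM in shNT and 189 and 195 CPM in shCYP1B1 (1.85, SE 0.08, adjusted p = 5.70e-08). SPARC, a collagen-binding matrix protein gene, rose from 113 and 114 to 359 and 371 CPM (1.69, SE 0.09), and the hyaluronan receptor gene CD44 from 300.1 and 285 to 662 and 678 CPM (1.195, SE 0.07). TGFBI and TPM2 rose by 1.19 and 1.49. The repressors of epithelial genes ZEB1 (31.1 and 31.1 to 62.2 and 64.2 CPM; 1.02, SE 0.09) and SNAI1 (13.3 and 12.1 to 30.9 and 31.1 CPM; 1.29, SE 0.12) rose and were added after their values were seen. The intermediate filament gene VIM rose from 671 and 629 to 1147 and 1134 CPM (0.81, SE 0.10). LOXL3 and TNC fell by 1.16 and 0.90, and CDH2, which encodes N-cadherin, had 0 counts in the 4 libraries. The 6 that fell became 3 without shNT replicate 1 or either shCYP1B1 library.

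The share of matrix and matrix-degrading genes that rose was also above the background. Of 21 tested metalloproteinases, related ADAM proteases and their TIMP inhibitors, 13 rose (61.9%) and 0 fell, with 8 higher by at least 2-fold. Proteases and inhibitors were both among them: MMP15 stood at 24.5 and 22.8 CPM in shNT and 67.9 and 71.3 CPM in shCYP1B1 (1.56, SE 0.11), the gelatinase genes MMP2 at 12.03 and 9.48 and 32.5 and 30.8 CPM (1.56, SE 0.20) and MMP9 at 9.95 and 5.82 and 30.4 and 30.5 CPM (1.95, SE 0.25). The inhibitor genes TIMP3 (68.6 and 67.9 to 228 and 219 CPM; 1.71, SE 0.09) and TIMP1 (93.2 and 88.8 to 191 and 191 CPM; 1.07, SE 0.08) rose too. Among collagens and laminins, 12 of 32 rose (37.5%) and 4 fell (12.5%). COL6A3, a chain of microfibrillar collagen VI, rose from 4.38 and 4.46 to 26.3 and 24.4 CPM (2.52, SE 0.19), and the laminin chain genes LAMB1, LAMB3 and LAMC1 by 1.04, 1.56 and 0.79. The 4 that fell became 2 without shCYP1B1 replicate 1 or either shNT library. Of 19 integrin genes, which encode the receptors for this matrix, 9 rose (47.4%) and 4 fell (21.1%), most by little: ITGA3 rose by 0.51 and ITGB1 by 0.34, while ITGB8, a receptor that releases active TGF-beta, fell from 3.23 and 2.96 to 0.183 and 0.421 CPM (-3.34, SE 0.70; -4.04 without shCYP1B1 replicate 2). The 4 integrin genes that fell became 2 without shCYP1B1 replicate 2 or shNT replicate 2.

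The pathways known for regulating such genes were measured too. In the TGF-beta and BMP list, 16 of 38 rose (42.1%) and 12 fell (31.6%). TGFB1, the ligand gene, stood at 175 and 167 CPM in shNT and 401 and 384 CPM in shCYP1B1 (1.2003, SE 0.07), the signal transducer gene SMAD3 at 76.4 and 81.02 and 132 and 138 CPM (0.78, SE 0.07), and the inhibitory SMAD6 at 7.38 and 8.08 and 41.4 and 43.3 CPM (2.45, SE 0.20). SMAD4, the shared partner of the receptor-regulated SMADs, was near the detection limit (1.56 and 1.22 and 0.214 and 0.1203 CPM; -3.03, SE 0.31). The 16 that rose became 10 without shNT replicate 1. Of 28 targets and partners of YAP and TEAD, the effectors of the Hippo pathway, 15 rose (53.6%) and 2 fell (7.14%). NT5E, an ectonucleotidase gene, rose from 6.69 and 6.75 to 37.5 and 36.3 CPM (2.46, SE 0.25), AXL from 107 and 105 to 178 and 178 CPM (0.75, SE 0.06) and CCN1 from 32.8 and 29.3 to 64.4 and 66.1 CPM (1.07, SE 0.18). The gene of YAP1 itself fell from 219 and 223 to 128 and 129.9 CPM (-0.78, SE 0.07), and CCN2, a widely used YAP target, did not pass (-0.53, SE 0.23, adjusted p = 0.072, but 0.00101 and 8.50e-04 without RKO overexpression replicates 1 and 2). The 15 became 9 without shNT replicate 1.

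Receptor and Wnt signalling genes were mixed. SW480 cells carry a truncated APC protein, and targets of beta-catenin are active in them as a rule. Of 37 such targets and pathway genes, 12 rose (32.4%) and 10 fell (27%), close to the background. The secreted inhibitor gene DKK4 stood at 216 and 215 CPM in shNT and 35.2 and 33.3 CPM in shCYP1B1 (-2.65, SE 0.09, adjusted p = 1.38e-08), PROX1 fell by 1.57, and SP5 fell by 0.9998 on the log2 scale. LEF1, a partner of beta-catenin, rose from 76.2 and 78.01 to 134 and 141 CPM (0.84, SE 0.09). Of 17 EGF receptor family genes, ligands and regulators, 2 rose (11.8%) and 5 fell (29.4%); the 2 became 4 or 5 without either RKO overexpression library and the 5 became 3 without either shCYP1B1 library. EGFR rose from 214 and 222 to 336 and 329 CPM (0.61, SE 0.08), and so did its negative regulator LRIG1 (75.7 and 76.5 to 156 and 149 CPM; 1.004, SE 0.08). ERBB2 and ERBB3 fell by 0.41 and 0.54. Of 40 immediate-early and ERK feedback genes, 19 rose (47.5%) and 5 fell (12.5%), among them EGR3 (21.2 and 19.6 to 53.9 and 55.2 CPM; 1.42), JUN (0.91) and the phosphatase gene DUSP5 (1.05), with ETV1 lower (-1.19). The 5 became 8 without either RKO overexpression library and 3 without shCYP1B1 replicate 1.

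DNA replication genes, which encode the helicase, polymerases and nucleotide-making enzymes of S phase, formed the list with the highest share of lower genes. Of 57, all of them tested, 39 fell (68.4%) and 5 rose (8.77%), 9 of the 39 by at least 2-fold, and the median was -0.51. Most of these changes were modest in size. TYMS, thymidylate synthase, stood at 178 and 175 CPM in shNT and 84.7 and 73.9 CPM in shCYP1B1 (-1.15, SE 0.08, adjusted p = 8.37e-07). GINS2, a subunit of the replicative helicase, stood at 66.02 and 62.2 and 28.2 and 26.6 CPM (-1.23, SE 0.10), and PCNA, the sliding clamp of the polymerases, at 279 and 273 and 139 and 127 CPM (-1.05, SE 0.08). The libraries of the 2 groups did not overlap for any of these, as held for 7166 of the 7167 genes that passed. POLA1, the priming polymerase (-1.05, SE 0.09), TIMELESS (-0.92, SE 0.07), MCM3 (-0.89, SE 0.09) and LIG1, the ligase of Okazaki fragments (-0.85, SE 0.09), fell as well. UHRF1, which maintains DNA methylation behind the fork, fell by 1.68 (SE 0.16). UHRF1 and MCM3 were added after their values were seen. CDT1, which loads the helicase, rose from 82.8 and 73.3 to 116 and 114 CPM (0.56, SE 0.12), and POLD1 (0.11) did not pass. The 39 stayed between 31 and 43 with any 1 library left out, while the 5 became 1 to 3 without any 1 of the SW480 libraries and 3 without RKO control replicate 1.

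Many replication genes are known targets of E2F factors, whose sites commonly read TTTCCCGC or TTTGGCGC. On either strand of the 300-base windows, the first was found for 14 of 50 replication genes with a window (28%) against 3.18% of all 11505, and the second for 8 of 50 (16%) against 1.3%. Among genes that rose and fell over the whole table the first stood in 2.87% and 4.09% of windows. The second stood in 0.831% and 1.94%. Among genes that rose and fell at least 2-fold, these shares were 1.58% and 3.03% for the first and 0.132% and 1.38% for the second. The windows of 4 genes that fell are given, with TTTCCCGC or its complement in capitals for GINS2, MCM3 and LIG1 and the complement of TTTGGCGC for POLA1.
GINS2, chr16:85688955-85689204, - strand: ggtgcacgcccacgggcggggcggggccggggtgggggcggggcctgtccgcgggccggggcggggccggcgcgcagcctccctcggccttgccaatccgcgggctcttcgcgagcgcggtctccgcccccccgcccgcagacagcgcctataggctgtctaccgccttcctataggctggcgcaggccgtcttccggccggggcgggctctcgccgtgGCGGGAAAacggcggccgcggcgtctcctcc
MCM3, chr6:52284743-52284992, - strand: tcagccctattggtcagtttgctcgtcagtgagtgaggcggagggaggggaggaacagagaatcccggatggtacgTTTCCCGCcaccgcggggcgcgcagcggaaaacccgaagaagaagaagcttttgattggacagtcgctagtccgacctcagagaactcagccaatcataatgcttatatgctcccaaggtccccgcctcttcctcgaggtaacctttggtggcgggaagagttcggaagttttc
LIG1, chr19:48170345-48170594, - strand: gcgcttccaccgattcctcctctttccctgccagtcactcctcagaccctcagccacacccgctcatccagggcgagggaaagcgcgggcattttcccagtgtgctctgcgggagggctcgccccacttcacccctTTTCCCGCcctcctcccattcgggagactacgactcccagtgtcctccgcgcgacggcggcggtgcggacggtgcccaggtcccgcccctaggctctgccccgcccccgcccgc
POLA1, chrX:24693668-24693917, + strand: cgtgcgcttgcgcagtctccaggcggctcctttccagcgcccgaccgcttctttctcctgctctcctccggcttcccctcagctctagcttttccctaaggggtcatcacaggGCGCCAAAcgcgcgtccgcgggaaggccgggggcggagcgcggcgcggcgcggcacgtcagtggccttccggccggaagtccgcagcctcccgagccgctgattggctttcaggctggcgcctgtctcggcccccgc

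Repair genes that act at stalled forks fell in a similar share. Of 40 homologous recombination and Fanconi genes, 23 fell (57.5%) and 6 rose (15%), with a median of -0.50. BRCA2, a central factor of homologous recombination, stood at 22.7 and 24.9 CPM in shNT and 9.26 and 7.997 CPM in shCYP1B1 (-1.47, SE 0.13), FANCD2 at 36.9 and 36.6 and 13.4 and 15.8 CPM (-1.33, SE 0.11), and NBN, a sensor of breaks, at 36.97 and 41.5 and 15.7 and 13.1 CPM (-1.44, SE 0.10). BRCA1 and FANCI fell by 0.85 and 1.02. The 6 that rose became 3 without shCYP1B1 replicate 2 or shNT replicate 2. Of 10 mismatch repair genes, 5 fell (50%) and 2 rose (20%), which became 1 without any 1 SW480 library; MSH3 fell by 0.66, and MSH6 did not pass (0.08).

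Regulators of the G1 to S step and mitotic genes changed in both directions. Of 31 cyclins, kinases, E2F factors and inhibitors of G1, 15 fell (48.4%) and 9 rose (29%). E2F2 stood at 9.402 and 10.6 CPM in shNT and 2.75 and 3.28 CPM in shCYP1B1 (-1.73, SE 0.17), and the E2F partner gene TFDP1 at 191 and 192 and 87.5 and 83.6 CPM (-1.16, SE 0.07); E2F3 and CDK6 fell by 0.96 and 0.86. The D cyclin genes CCND2 (49.6 and 48.9 to 88.8 and 96.7 CPM; 0.91) and CCND3 (98.3 and 107 to 175 and 174 CPM; 0.76) rose. Of 55 genes of G2 and mitosis, 18 fell (32.7%), 10 rose (18.2%) and 27 did not pass, with a median of -0.13. FOXM1, a transcription factor of this phase, fell from 374 and 371 to 161 and 170.1 CPM (-1.17, SE 0.12), the condensin genes NCAPG and SMC2 fell by 0.88 and 0.83, and the securin gene PTTG1 rose from 177 and 168 to 278 and 299 CPM (0.75, SE 0.08). TOP2A (-0.03) and CCNB2 (-0.06) did not pass. The 18 became 10 or 11 without shNT replicate 2 or either shCYP1B1 library, and the 10 became 5 without shCYP1B1 replicate 2. Of 33 p53 targets, 8 rose and 8 fell (24.2% each), at the background; CDKN1A rose from 124 and 130.4 to 204 and 192 CPM (0.64, SE 0.10) and MDM2 fell from 30.2 and 31.4 to 21.1 and 20.1 CPM (-0.58, SE 0.08). SW480 cells carry mutant p53.

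**Figure D3:**
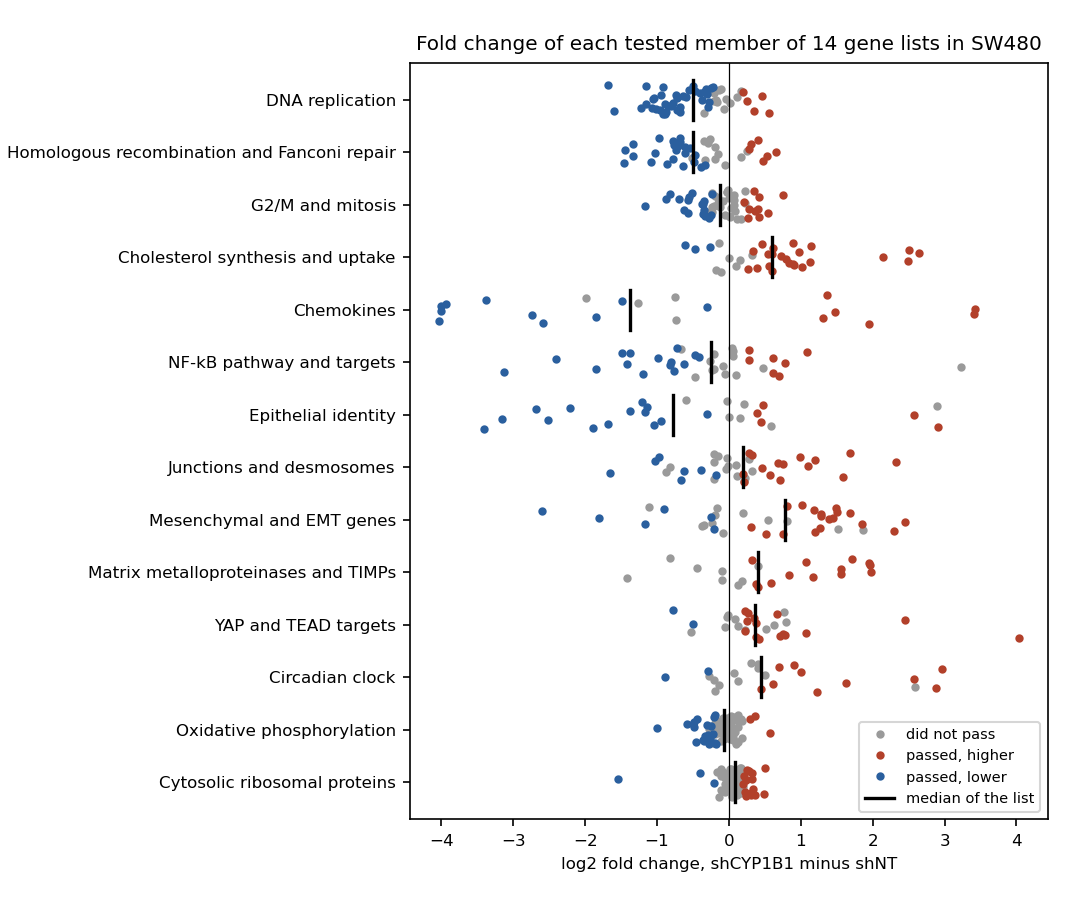
Log2 fold change of each tested member (dots, coloured where the member passed the test) and the median (black bar) of 14 gene lists. The DNA replication and epithelial identity medians lie at -0.51 and -0.77, the cholesterol and mesenchymal medians at 0.60 and 0.78, and most ribosomal protein and oxidative phosphorylation members lie close to 0.

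Cholesterol synthesis and uptake genes had the highest share of higher genes. This pathway is switched on by SREBP2 when sterols in the endoplasmic reticulum are low. Of 33 tested, 23 rose (69.7%) and 3 fell (9.09%), with 7 of the 23 at least 2-fold higher and a median of 0.60. MSMO1, an enzyme of the late pathway, stood at 18.7 and 19.2 CPM in shNT and 86.9 and 80.5 CPM in shCYP1B1 (2.14, SE 0.17, adjusted p = 2.18e-06), and SQLE, which makes squalene epoxide, at 56.8 and 56.3 and 124 and 127 CPM (1.15, SE 0.07). INSIG1, a sterol sensor partner, rose by 2.49 (SE 0.14). FDPS, an enzyme gene of the same route, did not pass (0.101). SREBF1 fell from 87.2 and 79.8 to 55.5 and 54.2 CPM (-0.61, SE 0.08). The 23 stayed between 19 and 24 with any 1 library left out, and the 3 that fell became 1 without shCYP1B1 replicate 1 or shNT replicate 1. Sterol export genes and other targets of liver X receptors changed both ways: of 9, 5 rose (55.6%) and 3 fell (33.3%). The 5 became 3 without either shCYP1B1 library or shNT replicate 2, and the 3 became 1 without shCYP1B1 replicate 2 or shNT replicate 1. ABCG1, a sterol exporter induced by liver X receptors when sterols are high, stood at 8.19 and 6.46 CPM in shNT and 50.1 and 50.4 CPM in shCYP1B1 (2.78, SE 0.16, adjusted p = 3.52e-07), and ABCA1 at 1.4997 and 1.42 and 4.15 and 5.38 CPM (1.71, SE 0.35). The phospholipid acyltransferase gene LPCAT3 fell by 0.67.

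Fatty acid genes were divided. Of 27 synthesis and desaturation genes, 8 rose (29.6%) and 6 fell (22.2%), near the background. The desaturase gene SCD5 rose from 23.2 and 25.6 to 66.4 and 70.3 CPM (1.48, SE 0.09) and DGAT2, which makes triglyceride, from 13.7 and 16.5 to 28.2 and 29.8 CPM (0.94, SE 0.14), while FADS1 and FADS2, the desaturases of polyunsaturated fatty acids, fell by 0.86 and 0.81. The 6 became 3 without shCYP1B1 replicate 2. Of 31 genes of fatty acid oxidation, 8 rose (25.8%) and 5 fell (16.1%), with a median of 0.03, and the 8 became 5 without either shNT library. PPARD, a nuclear receptor gene, and the enzyme gene ECHS1 rose by 0.88 and 0.32. CPT1A, which admits fatty acids to mitochondria, fell from 233 and 227 to 115 and 109 CPM (-1.04, SE 0.08).

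The pathway known to drive CYP1B1 moved in both directions. Of 12 tested AHR pathway genes, 4 rose and 4 fell (33.3% each). ARNT2, a partner related to ARNT, stood at 19.9 and 19.5 CPM in shNT and 5.74 and 5.68 CPM in shCYP1B1 (-1.78, SE 0.14), and AHRR, the AHR repressor gene and itself a target, at 22.99 and 27.6 and 10.5 and 11.2 CPM (-1.22, SE 0.19). AHR fell slightly (-0.31, SE 0.11, adjusted p = 0.0343, which became 0.188 without shCYP1B1 replicate 1, 0.0806 without shCYP1B1 replicate 2, 0.105 without shNT replicate 1 and 0.158 without shNT replicate 2). CYP1A1, the closest relative of CYP1B1 among AHR targets, stood at 8.19 and 7.48 CPM in shNT and 7.27 and 7.16 CPM in shCYP1B1 and did not pass (-0.12, SE 0.23, adjusted p = 0.69). The 4 that fell became 2 without any 1 SW480 library. Of 40 other P450 and partner genes, 24 could be tested, and 9 rose (37.5%) and 2 fell (8.33%). CYP3A5 stood at 5.28 and 7.33 CPM in shNT and 30.98 and 33.6 CPM in shCYP1B1 (2.36, SE 0.19), CYP2S1 at 60.7 and 63.4 and 126 and 129.6 CPM (1.04, SE 0.09), and the vitamin D hydroxylase genes CYP24A1 and CYP27B1 rose by 1.27 and 1.21. The 9 became 4 or 5 without shNT replicate 2 or either shCYP1B1 library, and the 2 became 1 without shCYP1B1 replicate 2.

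Iron-handling and ferroptosis genes changed in both directions, with the transferrin receptor gene TFRC and the cystine importer gene SLC7A11 among those that fell. Ferroptosis is a form of cell death by iron-dependent lipid peroxidation, which GPX4 holds in check with glutathione made from imported cystine. Of 27 promoting and iron-handling genes, 12 fell (44.4%) and 5 rose (18.5%). TFRC, the transferrin receptor that brings in iron, stood at 479.9 and 503 CPM in shNT and 123 and 118 CPM in shCYP1B1 (-2.03, SE 0.12, adjusted p = 3.44e-07), SLC11A2, which moves iron out of endosomes, at 71.1 and 76.9 and 43.4 and 42.5 CPM (-0.79, SE 0.09), and TFR2 and HFE fell by 1.32 and 1.11. SAT1, a polyamine-degrading enzyme gene, rose from 175 and 182 to 814 and 832 CPM (2.21, SE 0.18). Of 25 suppressors, 11 rose (44%) and 6 fell (24%). SLC7A11, the cystine importer, stood at 28.4 and 37.3 and 6.51 and 8.87 CPM (-2.09, SE 0.23), the iron-storage gene FTH1 at 4655 and 4469.7 and 3461 and 3479.7 CPM (-0.39, SE 0.08), and GPX4 at 366 and 337 and 574 and 563 CPM (0.69, SE 0.08). ACSL4, which supplies the oxidisable lipids, did not pass (0.18, adjusted p = 0.0751, but 0.00219 and 0.0022 without RKO overexpression replicates 1 and 2). The suppressor counts became 7 and 3 without shCYP1B1 replicate 1, and the 6 that fell also became 3 without shNT replicate 1; the promoter and iron counts of 5 and 12 became 3 and 8 without shNT replicate 1. KEAP1, the adaptor that marks NRF2 for breakdown, fell from 85.1 and 93.1 to 36.8 and 38.5 CPM (-1.25, SE 0.10). Any part of that fall in the changes of NRF2 targets was not tested. Of 36 targets of NRF2, the antioxidant transcription factor, 18 rose (50%), among them SRXN1 (0.79), TKT (0.85) and OSGIN1 (1.53), and 6 fell (16.7%). These became 11 to 13 and 3 without any 1 SW480 library.

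Arachidonic acid, a substrate of CYP1B1, is also handled by the prostaglandin and leukotriene enzymes. Of 21 tested eicosanoid genes, 5 rose and 5 fell (23.8% each), at the background. The prostaglandin reductase gene PTGR1 rose from 28.8 and 34.1 to 55.8 and 58.7 CPM (0.86, SE 0.10), and EPHX2, which hydrolyses fatty acid epoxides, fell from 22.3 and 24.1 to 8.096 and 12.5 CPM (-1.17, SE 0.20). Each count became 3 without shCYP1B1 replicate 1 or shNT replicate 1.

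Clock genes and genes that respond to glucocorticoids rose in shares above the background. Of 23 circadian genes, 10 rose (43.5%) and 2 fell (8.7%), and the 5 with at least a 2-fold change all rose. PER1, a repressor in the clock loop, stood at 22.3 and 20.3 CPM in shNT and 171 and 161 CPM in shCYP1B1 (2.97, SE 0.10, adjusted p = 1.38e-08), the output factor gene DBP at 19.5 and 18.5 and 119 and 109 CPM (2.58, SE 0.10), and BHLHE41 at 3.23 and 3.91 and 27.3 and 25.1 CPM (2.87, SE 0.16). The activator gene BMAL1, listed as ARNTL, rose by 1.22 and CRY2 by 1.64, and CLOCK (-0.14) did not pass. The 2 that fell became 1 without any 1 SW480 library. The hours at which the cultures were harvested were not analysed here. Of 18 glucocorticoid genes, 10 rose (55.6%) and 1 fell (5.56%). HSD11B1, which regenerates cortisol from cortisone, had 0 and 8 counts in shNT and 754 and 745 counts in shCYP1B1, or 0 and 0.232 against 23.03 and 22.4 CPM (7.57, SE 0.51, adjusted p = 8.92e-07). The size of that value depends on the shNT libraries used and became 6.59 without shNT replicate 1 and 12.58 without shNT replicate 2. The responsive genes KLF9 (24.1 and 27.2 to 55.4 and 50.1 CPM; 1.04) and MT1X (23.3 and 23.4 to 62.7 and 67.8 CPM; 1.48) rose, the receptor gene NR3C1 (-0.13) did not pass, and SCNN1A, the 1 that fell, changed by -0.95. That 1 became 3 without either RKO overexpression library.

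TXNIP, which restrains glucose uptake and binds thioredoxin, had the highest FPKM in the shCYP1B1 libraries of the genes that rose at least 2-fold. It stood at 94.7 and 94.8 CPM in shNT and 1894 and 1919 CPM in shCYP1B1, or 29.7 and 580 FPKM on average (4.33, SE 0.40, adjusted p = 7.08e-06). Its relative ARRDC4, which answers to the same glucose-sensing factors, rose from 11.2 and 9.505 to 44.3 and 50.6 CPM (2.19, SE 0.17), and the glucose transporter genes SLC2A3 and SLC2A1 fell by 0.63 and 0.33. Of 40 hypoxia and glycolysis genes, 16 rose (40%) and 5 fell (12.5%). EGLN3, a hypoxia-induced prolyl hydroxylase gene, rose from 15.03 and 13.7 to 38.2 and 40.2 CPM (1.45, SE 0.16) and ENO2 by 1.06, while CA9 (0.84, adjusted p = 0.271, but 0.0116 and 0.00668 without RKO overexpression replicates 1 and 2) and VEGFA (0.28, adjusted p = 0.329, but 4.44e-04 and 3.98e-04 without RKO overexpression replicates 1 and 2) did not pass. The 5 became 8 without either RKO overexpression library and 3 without shCYP1B1 replicate 2 or shNT replicate 1.

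Protein folding and nutrient genes moved in different directions. Of 30 unfolded protein response genes, 15 fell (50%) and 9 rose (30%). CANX, the chaperone calnexin with the highest FPKM in shNT of the genes that fell at least 2-fold, stood at 1191 and 1231 CPM in shNT and 583 and 588 CPM in shCYP1B1 (-1.05, SE 0.09); HSPA5, the chaperone BiP, fell by 0.38 and HYOU1 by 0.59, and ERO1B rose by 1.35. The counts became 8 or 9 lower and 6 or 7 higher without shNT replicate 2 or either shCYP1B1 library. Of 26 cytosolic heat shock genes, 11 rose (42.3%) and 0 fell, among them HSP90AA1 (3895 and 3974 to 5963 and 6048 CPM; 0.61, SE 0.09) and HSPB1 (0.701, SE 0.07). These became 16 higher and 3 lower without either RKO overexpression library and 7 higher without shNT replicate 2. Of 43 amino acid response genes, 11 fell (25.6%) and 7 rose (16.3%), with a median of 0.05. The counts became 15 lower and 21 higher without either RKO overexpression library and 3 or 4 higher without any 1 SW480 library. The transporter gene SLC7A5 fell from 1341 and 1323 to 729 and 744 CPM (-0.85, SE 0.07) and SLC38A1 by 0.85, STC2 and MTHFD2 rose by 0.61 and 0.62, and DDIT3, which encodes the stress factor CHOP, had 1.23 and did not pass (adjusted p = 0.053, but 7.13e-14 and 3.73e-14 without RKO overexpression replicates 1 and 2). In the lysosome and autophagy list 15 rose and 15 fell of 46 (32.6% each): ULK1, the kinase that starts autophagy, rose from 19.6 and 21.5 to 77.96 and 70.3 CPM (1.85, SE 0.12) and GABARAPL1 by 1.42, and MCOLN1, a lysosomal channel gene, fell by 1.39. The lysosome counts became 11 and 9 without shNT replicate 1, and 9 rose without shNT replicate 2.

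Most respiratory chain and ribosomal protein genes did not pass. Of 75 nuclear genes of oxidative phosphorylation, 21 fell (28%), 3 rose (4%) and 51 did not pass, with a median of -0.07; NDUFB2, a complex I subunit gene, showed the largest fall (56.8 and 51.8 to 27.9 and 26.4 CPM; -1.0002, SE 0.09). Of 78 cytosolic ribosomal protein genes, 15 rose (19.2%), 3 fell (3.85%) and 60 did not pass, with a median of 0.08. Both lists have a narrow spread, and their counts depend on the libraries in the fit. The respiratory counts became 29 lower and 9 higher without either RKO overexpression library and 10 to 13 lower without shNT replicate 1 or either shCYP1B1 library. The ribosomal counts became 36 or 37 higher and 8 lower without either overexpression library and 5 to 9 higher and 1 or 2 lower without any 1 SW480 library. Among ribosome-building genes 17 rose and 16 fell of 45 (37.8% and 35.6%), including NOP56, a core protein of small nucleolar particles, which fell from 265 and 266 to 124 and 129 CPM (-1.07, SE 0.07), and POLR1A, the large subunit of RNA polymerase I, which fell by 1.22. Both counts became 11 without shCYP1B1 replicate 2 or shNT replicate 1. MYC, added after its value was seen, rose from 889 and 898 to 1134 and 1136 CPM (0.35, SE 0.08).

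**Figure D4:**
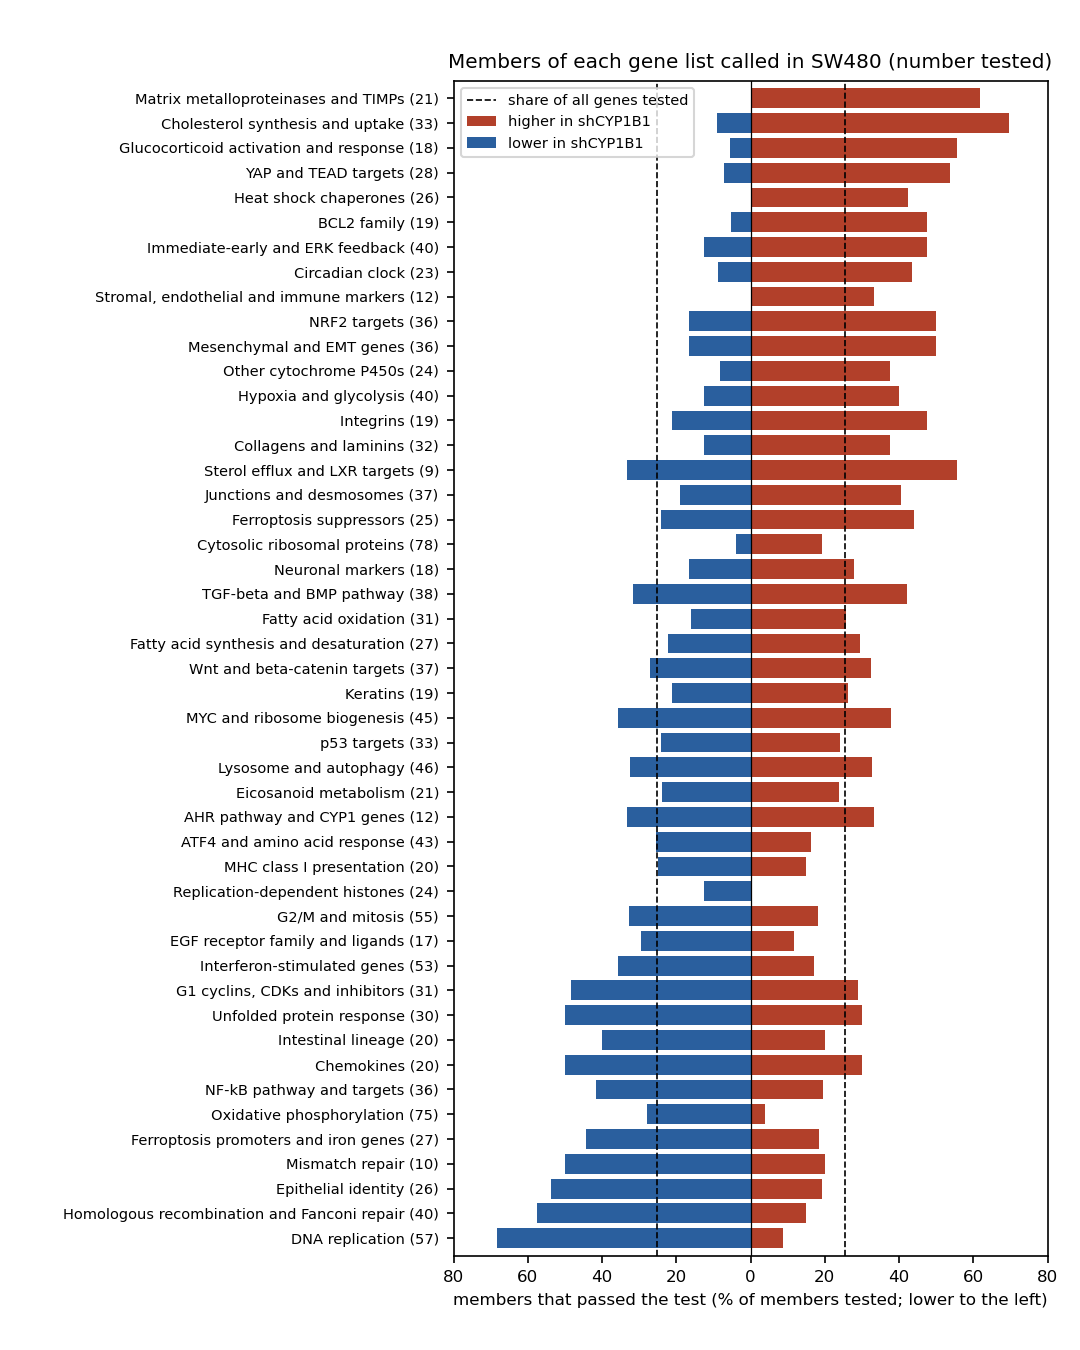
Share of tested members that rose (right) or fell (left) in each of 47 gene lists, with the number tested in brackets and dashed lines at the 25.3% seen for all genes in each direction. DNA replication reaches 68.4% lower and cholesterol synthesis and uptake 69.7% higher; several lists, such as p53 targets and eicosanoid metabolism, end close to both lines.

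Several of the largest single changes lie outside these lists. PRR9, a gene of the epidermal differentiation complex on chromosome 1, stood at 3.201 and 2.98 CPM in shNT and 113 and 109 CPM in shCYP1B1 (5.16, SE 0.13, adjusted p = 2.65e-09). NOTCH3, a receptor of the Notch pathway, stood at 0.981 and 1.65 and 25.3 and 23.9 CPM (4.22, SE 0.34), the ubiquitin ligase gene MARCHF4 at 2.77 and 1.999 and 40.6 and 40.9 CPM (4.09, SE 0.27), and LRRC55, a subunit gene of potassium channels, at 4.67 and 5.65 and 70.3 and 70.4 CPM (3.77, SE 0.17). The rule that named these genes required libraries that do not overlap between the groups. Each of the genes was close to silent or low in shNT. SUSD2 (3.77), DACT3, an inhibitor of Wnt signalling (3.82), STC1, a secreted glycoprotein hormone (3.93), TLR9, the sensor of unmethylated DNA (4.31) and LTF, lactoferrin (3.49) rose as well. With shNT replicate 2 left out, SUSD2 stood at 4.41 and LTF at 4.40 on the log2 scale. The rule also names AMOTL1, which binds YAP (4.03), the glutamate receptor gene GRIA1 (4.81), TMEM132C (4.87; 5.57 without shNT replicate 1), TRABD2B (4.78; 5.53 without shNT replicate 2) and COX6B2, a testis form of a respiratory subunit (3.78). SLA (5.83), APLNR (5.69), CMKLR1 (5.597; 4.75 without shNT replicate 1 and 7.92 without shNT replicate 2) and SMPD3 (4.84; 6.15 without shNT replicate 1 and 4.18 without shNT replicate 2) complete the 20 genes with the largest rise.

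Among the genes that fell most, PTPRZ1, a receptor phosphatase gene, stood at 18.2 and 14.9 CPM in shNT and 1.89 and 1.89 CPM in shCYP1B1 (-3.13, SE 0.27), PCLO, a scaffold gene of synapses, at 24.9 and 30.02 and 3.21 and 2.796 CPM (-3.19, SE 0.28), and PAX5, a B-cell transcription factor gene, at 12.7 and 11.97 and 2.11 and 1.29 CPM (-2.86, SE 0.42). NOS3, the endothelial nitric oxide synthase gene, fell by 3.24, the cilia gene CFAP44 by 3.18, and SPNS2, an exporter of sphingosine 1-phosphate, by 2.98. MYT1, a neuronal transcription factor gene, went from 5.13 and 5.39 to 0.0306 and 0.241 CPM (-5.23, SE 0.69; -4.42 without shCYP1B1 replicate 1 and -7.26 without shCYP1B1 replicate 2). PLPPR4 (-3.53), ACTRT3 (-3.04) and PRSS56 (-2.84) fell too. U2AF1L5 also met the rule, but its 2 shNT libraries differed widely (2.02 and 53.9 against 1.28 and 1.503 CPM in shCYP1B1), and it is a near-identical copy of the splicing gene U2AF1, so its reads can be assigned to either. Its value of -4.32 (adjusted p = 0.00528) became -0.53 without shNT replicate 2 and -5.27 without shNT replicate 1, and its adjusted p became 0.386 without shNT replicate 2, 0.061 without shCYP1B1 replicate 1 and 0.056 without shCYP1B1 replicate 2. Among abundant transcripts that fell at least 2-fold were a gene of RNA processing and a receptor: SRSF2, a splicing factor, stood at 296 and 295 CPM in shNT and 107 and 104 CPM in shCYP1B1 (-1.48, SE 0.07), and NGFR, the low-affinity neurotrophin receptor, at 660.2 and 638 and 191 and 198 CPM (-1.74, SE 0.09); NOP56 was given above. Abundant genes that rose included CST1, a cysteine protease inhibitor (187 and 191 to 379 and 390.3 CPM; 1.03, SE 0.09), and H1-10, a linker histone (214 and 210.1 to 445 and 435 CPM; 1.05, SE 0.07).

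A few genes had almost no counts in one group only. With 3 counts or fewer in each shNT library and at least 1 CPM in each shCYP1B1 library there were 4 genes, CRYBA4, EMX2, IGFL2 and PCED1B. The reverse held for 7, C9orf43, F2RL3, JAM3, KRT36, NT5DC4, PRSS2 and TMEM30B. These genes were named after their values were seen, PRSS2 has close copies, and no fold is given because their low group is at or under the detection floor of 3 counts in each library.

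Where a gene lies and how long it is went along with the share of changed genes to a small degree. On chromosome 19, 32.3% of 1069 tested genes rose and 16.1% fell, with a median log2 fold change of 0.13, while on chromosome 4 the shares were 20% and 29.6% with a median of -0.14. Sorted by length, the shortest of 4 equal groups of genes (227 to 2420 bp) had 25.4% higher and 19.8% lower, and the longest (6234 to 44221 bp) 23.1% and 30.7%. Sorted by level, the most abundant of 4 such groups had 32.4% higher and 27.9% lower, with 4.83% changed by at least 2-fold, and the least abundant had 14.8%, 16.2% and 25.6%. No test was run on these shares, and their part in the results for single lists was not tested.

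The RKO libraries give a second contrast in CYP1B1. RKO carried an overexpression construct and SW480 a hairpin, so a difference between the contrasts can come from the line or from the kind of manipulation, and these cannot be told apart. Both contrasts were taken in the same direction, CYP1B1-low minus CYP1B1-high, which is shCYP1B1 minus shNT in SW480 and control minus overexpression in RKO, and the difference was tested as an interaction. The size of the change in CYP1B1 itself differed greatly, -2.44 in SW480 against -9.42 in RKO. The difference passed for 6028 of 14157 genes (42.6%). Of 12 genes set for this test, chosen with earlier results of these data known, 8 differed between the 2 contrasts. CYP1B1, the gene manipulated in both lines, is among these 8. EPCAM changed by -2.52 in SW480 and 0.009 in RKO (difference -2.52, SE 0.18, adjusted p = 3.99e-06). INSIG1 and HMGCS1, a cholesterol synthesis enzyme gene, rose in SW480 (2.49 and 0.89) and had values of -0.64 and -0.90 in RKO (differences 3.13 and 1.78, adjusted p = 1.63e-06 and 3.44e-05). CYP1A1 and CCN2 had -0.12 and -0.53 in SW480 and 1.41 and 1.17 in RKO (differences -1.53 and -1.70, adjusted p = 0.00669 and 0.00108). For MCM2, a helicase subunit of replication, the values were -0.80 and -0.72 and their difference did not pass (-0.07, SE 0.17, adjusted p = 0.779). For CXCL1 they were -4.01 and -1.84, with an imprecise difference, CXCL1 being at 0.143 CPM or less in RKO (-2.18, SE 1.88, adjusted p = 0.389). The differences of CDH1 and AXIN2 did not pass either (adjusted p = 0.328 and 0.229). Single libraries decide some of these calls. Without RKO overexpression replicate 2, MCM2 and AXIN2 passed (-0.33 and -0.60, adjusted p = 0.00115 and 9.82e-05). MCM2 stood at 0.14 without RKO overexpression replicate 1 and 0.01 without RKO control replicate 1. CXCL1 stood at 1.03 without RKO control replicate 2, -3.05 without RKO control replicate 1 and -2.81 without shCYP1B1 replicate 2. VIM passed with all libraries (0.52, adjusted p = 0.0252). Its adjusted p lay between 0.0555 and 0.105 without any 1 library other than RKO overexpression replicate 2, and its difference was 0.2496 without RKO overexpression replicate 1. By limma on log2 of FPKM plus 1, the differences of CXCL1 (-3.459, adjusted p = 1.716e-04) and CDH1 (0.3384, adjusted p = 0.01314) passed.

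**Figure D5:**
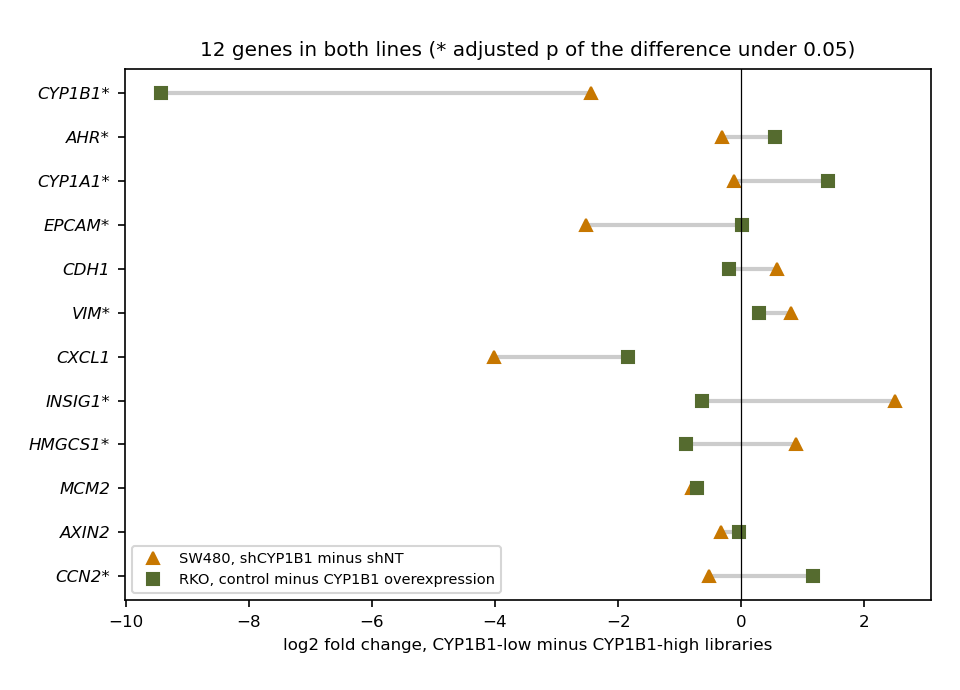
Log2 fold change of 12 genes in CYP1B1-low minus CYP1B1-high libraries, with triangles for SW480 and squares for RKO, and an asterisk where the difference between the lines had an adjusted p under 0.05. EPCAM lies at -2.52 in SW480 and 0.009 in RKO, INSIG1 and HMGCS1 lie on opposite sides of 0, and the points for MCM2 nearly coincide.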

How the data were processed

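RNA-seq was measured in 8 libraries of 2 human colorectal cancer lines, and the 4 SW480 libraries are described. The authors deposited raw read counts per gene and FPKM values for the same genes. Per the submitters' processing notes the genome build was GRCh38.p13. How reads were aligned and counted, with which annotation, and whether strand was used is not given in the sources used here, so reads of genes that overlap, on 1 strand or both, may be mixed. The deposited FPKM values were used for levels per length and in alternatives.

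Counts were tested with edgeR 4.0.16 in R 4.3.3: filterByExpr (minimum count 10, minimum total 15), TMM scaling, a quasi-likelihood fit with 1 coefficient for each of the 4 groups over all 8 libraries, and Benjamini-Hochberg adjustment with a threshold of 0.05. The standard error is the size of the log2 fold change divided by the square root of F. With 2 libraries a group the smallest exact permutation p is 0.333, so that test was not run. The steps were tested on simulated data in which few genes were changed, none of them with low mean counts. Genes with few reads and a change in so large a share of genes were not covered.

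The 47 gene lists, the genes named and the motifs were chosen with earlier results of these data known. The rule names CYP1B1 and 11 set genes, and the 20 largest changes each way at 5 CPM or more in the higher group. Those changes had to pass the test, with libraries that do not overlap between the groups. The 6 most abundant genes each way that passed and changed at least 2-fold are also named. For each list it names up to 6 members with the smallest p in the leading direction and up to 3 in the other. Up to 2 members that did not pass are named too. Some genes that the rule names are not reported here. Promoter windows came from RefSeq (GRCh38.p14) and were found for 11505 tested genes, matched by gene ID. Alternatives were RLE scaling, library size only, other filters, DESeq2 1.42.0, limma 3.58.1 on log2 of FPKM plus 1 or 0.1, SW480 alone, a replicate block, a test against a 1.5-fold change and each library left out. Where that leaves a group with 1 library, it is assumed to vary like the others.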

Additional observations from a re-analysis of the deposited data

Results flagged for a closer look

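The effects of 8 genes differed between the SW480 and RKO contrasts by the interaction test in edgeR (adjusted p under 0.05 over all genes); cell line and kind of manipulation cannot be told apart. Each value is the SW480 effect minus the RKO effect on the log2 scale, both taken as CYP1B1-low minus CYP1B1-high. The difference was 6.98 for CYP1B1, the gene manipulated in both lines, which changed far more in RKO. It was -2.52 for EPCAM and -1.53 for CYP1A1. It was 3.13 for INSIG1 and 1.78 for HMGCS1, genes of sterol regulation and synthesis. It was -0.866 for AHR, -1.70 for CCN2 and 0.516 for VIM. The VIM difference was 0.2496 (adjusted p = 0.1045) without RKO overexpression replicate 1, and by limma on log2 of FPKM its adjusted p was 0.09356 with 0.1 added and 0.06036 with 1 added and no filter.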

How the results depend on the processing

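Of 232 named genes besides CYP1B1, 216 were called, and 212 of these were also called in each of the other fits that held them and test for a change of any size; AHR, AXIN2, CXCL6 and U2AF1L5 were not. The filter of 1 CPM in 2 SW480 libraries left out 1 of the 216, CCR10. CYP1B1 was called in each fit, at -2.71 to -2.095 with 1 library left out. Against a fold change of 1.5, 1994 genes were called (1037 higher, 957 lower) and 1961 for the difference between the lines. By limma on log2 of FPKM plus 1, 395 genes were at least 2-fold higher and 313 lower, and 392 and 312 without a filter; adding 1 shrinks changes of low genes. With 1 library left out, called genes ranged from 5130 to 8743 (2573 to 4373 higher, 2538 to 4370 lower), at least 2-fold from 836 to 1088 higher and 725 to 985 lower, and the difference between the lines from 4600 to 7146. For that difference, CXCL1 went from -3.052 to 1.028 and MCM2 from -0.3254 to 0.1425 (0.01224 without RKO control replicate 1), and the cause was not tested. By limma on log2 of FPKM, CXCL1 passed with 0.1 added (-3.388, adjusted p = 0.001425) and with 1 added (-3.459), and CDH1 with 1 added (0.3384). With the replicate number as a replicate block, 6891 genes were called (3463 higher, 3428 lower). The deviations of same-numbered SW480 libraries had a correlation of -0.00472, over genes at 1 CPM or more in all 8 libraries. One such correlation cannot show whether the numbers pair the libraries, and the labels used here do not say what the numbers stand for. Only 2 libraries per group and counts near 0 limit the precision for low genes.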
